A study of Mus musculus with 5 samples.

Results

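The genes described here are 10 members of the matricellular group of extracellular proteins: the thrombospondins Thbs1, Thbs2, Thbs3 and Thbs4, and Sparc, Spp1, Tnc, Postn, Tgfbi and Fn1. They were chosen by gene symbol, and each symbol had 1 row among the 23337 genes of the deposited table. The cells were embryonic fibroblasts of 129Sv mice, immortalized with SV40T (the large T antigen of a virus) and kept under normal conditions, and poly-A RNA was sequenced. The WT group held 3 libraries of wild-type cells and the KO group 2 libraries of cells labelled SIRT3 -/-. Both groups carry the T antigen, and SIRT3 is a deacetylase of mitochondria. No label says how many lines, clones or embryos stand behind a genotype, or that the libraries of a genotype are separate cultures, so the p-values given here speak only of how these libraries vary, which may be technical.

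Matricellular proteins are secreted into the extracellular matrix but mostly act as signals rather than as scaffold. They bind integrins, proteoglycans, growth factors and collagens, and fibroblasts release many of them in wounds and scars. Thrombospondins are multi-subunit glycoproteins. Thbs1 and Thbs2 bind the receptors CD36 and CD47 and slow the growth of blood vessels, and Thbs1 can also release TGF-beta from its latent complex. Fibronectin, the product of Fn1, is a structural glycoprotein on which many of the others assemble, and it is the one member that is also a main scaffold of the matrix.

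Values are normalized read counts, that is, reads per gene divided by the size factor of the library. RPKM, which also divides by gene length and by sequencing depth, is used where levels of different genes are compared. The libraries held 33473103 to 41758681 reads. Reads of the targeted gene Sirt3 were present throughout, at 169.7, 149.4 and 118.4 normalized read counts in the WT libraries and at 200.4 and 216.8 in the libraries labelled KO (limma, log2 fold change 0.53, adjusted p = 0.0044). With the median log2 fold change of the other genes in its 10 Mb bin removed, it was at 0.22 and did not pass (limma, adjusted p = 0.23). Counts per gene cannot show whether a deleted exon is missing, so these reads do not settle whether the label of a knockout holds. Every direction below is therefore between libraries as labelled. Fibroblast markers (10 genes, none at 0), led by Vim, summed to 4926.7 to 5128.1 RPKM in WT and 4282.5 to 4438.0 in the libraries labelled KO. Of these, 8 passed the filter on low values given below, and 2 were called higher and 5 lower (32.6% of all genes in each direction). Markers of macrophages and blood stood at 1.55 to 2.07 RPKM in sum over 7 genes (1.87 to 2.07 in WT and 1.55 to 1.79 in the libraries labelled KO). The 6 markers of epithelium summed to 0.394 to 0.574 RPKM in WT and 1.75 to 1.84 in the libraries labelled KO. The 5 markers of platelets, led by Ppbp, stood at 7.19 to 7.91 and 2.14 to 3.05. The 6 of Schwann cells and neurons, led by Tubb3, stood at 15.0 to 16.4 and 9.18 to 9.23. In the lists of macrophages and blood, epithelium, and Schwann cells and neurons, only Tyrobp, Krt5 and Sox10 were at 0 in all libraries. Every other gene of these lists had reads in at least 1 library. The 7 markers of smooth and striated muscle, led by Acta2, which contractile fibroblasts also express, summed to 296.0 to 304.4 RPKM in WT and 814.5 to 849.9 in the libraries labelled KO. The 7 endothelial markers, led by Flt1, stood at 5.15 to 5.41 RPKM in WT and 14.1 to 14.8 in the libraries labelled KO. A sum can follow its highest gene, so counts called higher and lower among tested genes are given too. For macrophages and blood they were 1 and 0 of 2, and for epithelium 2 and 0 of 2. For platelets they were 0 and 2 of 3, and for Schwann cells and neurons 1 and 1 of 4. For muscle they were 4 and 0 of 4, and for endothelium 3 and 0 of 5, against 32.6% of all genes in each direction. The part of these shifts in the results below was not tested, and in bulk RNA fewer cells of a type and less RNA per cell cannot be told apart.

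Upstream sequences of 3 members are shown because these differed most between the libraries: Spp1, with the largest rise, and Thbs2 and Tgfbi, with the largest falls. Each is the 250 bases before the RefSeq start site (GRCm38.p6), 5′ to 3′ on the strand of the gene, with matches to the motifs named next in capitals.

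Spp1 (chr5:104434861-104435110, plus strand): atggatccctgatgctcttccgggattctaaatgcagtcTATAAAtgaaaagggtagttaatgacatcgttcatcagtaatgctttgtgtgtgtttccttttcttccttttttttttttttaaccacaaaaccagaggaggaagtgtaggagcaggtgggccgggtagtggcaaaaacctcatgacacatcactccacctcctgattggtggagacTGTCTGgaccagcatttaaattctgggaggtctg
Thbs2 (chr17:14694263-14694512, minus strand): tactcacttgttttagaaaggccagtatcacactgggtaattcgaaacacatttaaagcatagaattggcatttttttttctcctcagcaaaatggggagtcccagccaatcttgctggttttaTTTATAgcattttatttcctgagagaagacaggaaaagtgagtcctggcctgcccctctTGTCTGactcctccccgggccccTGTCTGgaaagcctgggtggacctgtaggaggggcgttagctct
Tgfbi (chr13:56609336-56609585, plus strand): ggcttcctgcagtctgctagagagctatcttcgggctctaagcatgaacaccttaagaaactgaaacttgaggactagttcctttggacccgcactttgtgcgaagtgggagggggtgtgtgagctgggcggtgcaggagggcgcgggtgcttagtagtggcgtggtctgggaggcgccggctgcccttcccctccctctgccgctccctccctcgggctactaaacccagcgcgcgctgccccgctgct

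Both strands were searched for the promoter box TATAAA, the AP-1 motif TGANTCA, the TEAD motif GGAATG, the SMAD motif CAGACA, the E-box CACGTG and the CArG box of serum response factor. None of the motifs written here as letters contains another, while a CArG box can hold TATAAA. The RefSeq promoter table held 11 windows of 300 bases (250 before a start site and 50 after) for 8 of the 10 members, with a second start site for Spp1, Tnc and Postn, and it had no entry for Thbs1 and Fn1. CAGACA was found in 6 of the 11 windows, among them those of Spp1, Thbs2, Sparc, Tnc and Thbs4, against 21.0% of all 32851 windows in the table. TATAAA was found in 5 of the 11, against 13.6% of all windows. In 1 of the 2 windows of Postn it lay 26 bases before the start site. In the windows of Tnc, Spp1 and Thbs2 it lay farther off, 126 to 211 bases before the start site. GGAATG was in 1 window, that of Thbs4 (14.7% of all windows). The 2 windows of Tnc overlap and share 1 CAGACA and 1 TATAAA site, so the counts come to 5 and 4 genes. A second CAGACA lay in only 1 of these 2 windows. AP-1, E-box and CArG matches were in 0 of the 11, against 7.81%, 7.15% and 1.63% of all windows. The windows printed for Spp1 and Thbs2, which went in opposite directions, both held CAGACA, which reads TGTCTG in the sequences printed above because it lies on the other strand. The window at the second start site of Spp1 held none of the motifs. That of Tgfbi, which was lower like Thbs2, held none of these letters.

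Of the 10 members, 9 passed the filter on low values (10 or more normalized read counts in at least 2 libraries). Thbs1, Spp1 and Tnc were higher in the libraries labelled KO, and Thbs2, Tgfbi, Thbs3 and Sparc were lower. Fn1 and Postn did not pass the test, and Thbs4 was at or near 0. The 7 of 9 members called at an adjusted p under 0.05 (limma, Benjamini-Hochberg over 13062 genes) compare with 65.3% of all genes tested. By direction, 3 of 9 were called higher and 4 of 9 lower, against 32.6% of all genes in each direction. The groups did not overlap for 7 of 9 members, against 75.4% of all genes. These shares are near the background. The members were chosen with earlier results of these data known, which limits what the sizes of their differences can say about the group. A called difference of at least 2-fold was found for 5 of 9 members, against 13.0% of all genes tested. Over the 9, the log2 fold change had a median of -0.039, beside -0.0023 over all genes, and the median size of their difference was 1.10, beside 0.30 over all genes.

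**Figure D1:**
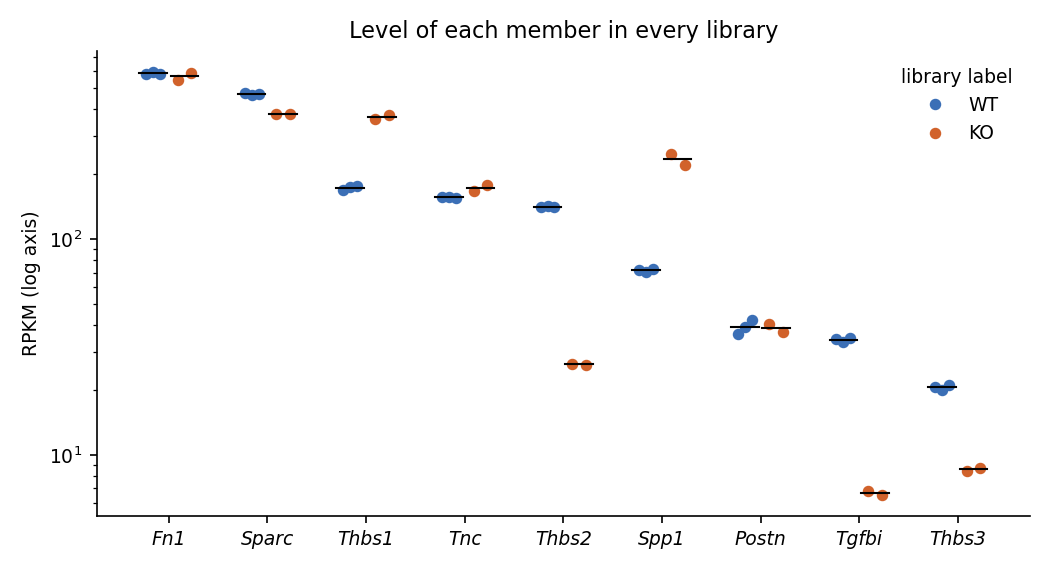
RPKM (log axis) of 9 members in each of the 3 WT libraries (blue) and 2 libraries labelled KO (orange), with group means as black bars. Groups lie apart for Spp1, Thbs1, Thbs2, Tgfbi, Thbs3, Sparc and Tnc and overlap for Fn1 and Postn. Thbs4, at or near 0, is not drawn.

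Thbs1 (chromosome 2, 118111876 to 118127133, mm10) encodes the thrombospondin of platelets and activated fibroblasts. WT replicates 1 to 3 held 36322, 37289 and 37743 normalized read counts of it, and KO replicates 1 and 2 held 77176 and 81843. Both libraries labelled KO lay above every WT library by a wide margin. The mean rose 2.14-fold, from 37118 ± 725 in WT (SD, n = 3) to 79510 ± 3300 (SD, n = 2) in the libraries labelled KO (log2 fold change 1.10, standard error 0.040, limma adjusted p = 5.7e-16).

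Thbs2 (chromosome 17, 14665500 to 14694262), the close relative of Thbs1 that is typical of connective tissue fibroblasts, went the other way. It stood at 30802, 31136 and 30803 normalized read counts in the WT libraries and at 5752 and 5793 in the libraries labelled KO. The groups lay far apart and each was tight, with coefficients of variation of 0.623% in WT and 0.499% in the libraries labelled KO. The log2 fold change was -2.42 (standard error 0.035, limma adjusted p = 1.0e-22), a level 5.36-fold higher in WT. The difference was the 437th largest in size among the 13062 genes tested.

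Thbs3 (chromosome 3, 89215180 to 89226841) belongs to the other subgroup of thrombospondins, found in cartilage and tendon. It fell from 2434, 2350 and 2467 normalized read counts in WT to 989 and 1035 in the libraries labelled KO. No library of one group came near the other group. Its log2 fold change was -1.26 (standard error 0.051, limma adjusted p = 4.3e-15). In GENCODE M21 the gene Mtx1, on the opposite strand, overlaps 11658 bp of Thbs3, introns included, while by RefSeq positions it lies 1273 bp away. The sources used here do not say whether counting used strand, so reads of both could be mixed. Mtx1 itself stood at 1573 normalized read counts in WT and 1629 in the libraries labelled KO, a log2 fold change of 0.050 (limma, adjusted p = 0.41).

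Thbs4 (chromosome 13, 92751586 to 92794818), known from tendon, muscle and injured tissue, had 4 reads in WT replicate 1 and 0 reads in the other 4 libraries. A count of 0 allows up to 3 reads, which is 2.78 to 3.34 normalized read counts in those libraries (counting error only). A difference in Thbs4 was therefore not detectable at this depth.

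The make-up of the thrombospondin transcripts differed between the groups as labelled. In RPKM, Thbs1 to Thbs4 summed to 331.3, 335.8 and 338.1 in the WT libraries and to 395.6 and 412.7 in the libraries labelled KO. Thbs1 made up 51.7% ± 0.461 (SD, n = 3) of that sum in WT and 91.4% ± 0.235 (SD, n = 2) in the libraries labelled KO. Thbs2 made up 42.2% ± 0.450 and 6.50% ± 0.221, and Thbs3 6.14% ± 0.168 and 2.12% ± 0.014. The ratio of Thbs1 to Thbs2 in RPKM was 1.20, 1.22 and 1.25 in WT libraries and 13.7 and 14.4 in the libraries labelled KO. This ratio is taken within a library, so it does not depend on scaling between libraries, and the groups did not overlap.

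**Figure D2:**
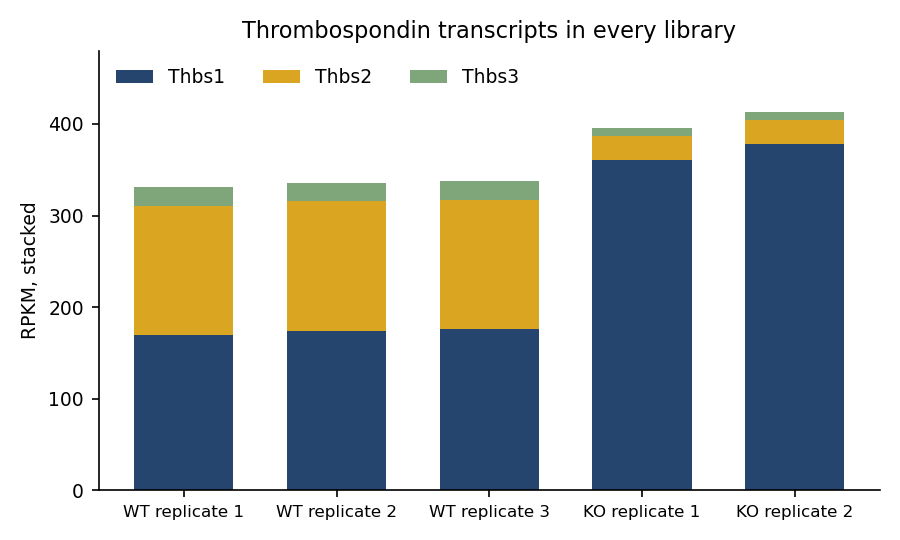
Stacked RPKM of Thbs1, Thbs2 and Thbs3 in each library, with bars starting at 0. Thbs1 and Thbs2 were of like size in the 3 WT libraries, while Thbs1 made up 91.4% of the sum on average in the 2 libraries labelled KO. Thbs4, with 4 reads in all, is not drawn.

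Among the other matricellular members, Spp1 rose most. It encodes osteopontin, a phosphoprotein of bone and of inflamed tissue that binds integrins and CD44. Spp1 (chromosome 5, 104435111 to 104441053) was at 4397, 4323 and 4438 normalized read counts in WT and at 15181 and 13674 in the libraries labelled KO. Both of the latter were far above all WT libraries, though they differed from each other by more than the WT libraries did, with a coefficient of variation of 7.39% against 1.33%. The rise was 3.29-fold (log2 fold change 1.72, standard error 0.043, limma adjusted p = 9.5e-19). The 9 bone and cartilage markers, led by Runx2, summed to 36.6 to 37.6 RPKM in WT and 26.6 to 28.7 in the libraries labelled KO. Of these, 5 were tested, and 2 were called higher and 2 lower (32.6% of all genes in each direction). Ibsp was at 0 in all libraries. Ibsp and Mepe, which lie beside Spp1 and encode related bone phosphoproteins, were both at 0 reads.

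Tnc (chromosome 4, 63959785 to 64047015) encodes tenascin-C, a large protein with many fibronectin-like repeats that loosens cell adhesion. It was read at 41063, 41282 and 40579 normalized read counts in WT and at 43705 and 47244 in the libraries labelled KO. The groups did not overlap, but the lower of the libraries labelled KO was close to WT. The difference was small, 1.11-fold (log2 fold change 0.15, standard error 0.040, limma adjusted p = 0.0026), and without KO replicate 1 or KO replicate 2 the log2 fold change was 0.21 or 0.093. In GENCODE M21 a gene on the opposite strand, 8030451A03Rik, overlaps 67162 bp of Tnc, introns included, with the same limit on strand. Shorter overlaps were annotated for Thbs1 (597 bp, opposite strand), Spp1 (1252 bp, same strand) and Fn1 (364 bp, opposite strand).

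Sparc (chromosome 11, 55394159 to 55420080) encodes osteonectin, which binds collagen and calcium and helps collagen fibrils to form. It was at 40244, 39755 and 40118 normalized read counts in WT and at 32311 and 32796 in the libraries labelled KO. Each group was tight and they lay apart, yet the fall was modest, with WT 1.23-fold higher (log2 fold change -0.30, standard error 0.036, limma adjusted p = 3.1e-07). In RPKM, Sparc was 6.60, 6.63 and 6.52 times as high as Spp1 in WT libraries and 1.53 and 1.73 times as high in the libraries labelled KO.

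Postn and Tgfbi are a pair of related genes, both for proteins built of fasciclin domains that bind integrins and collagen, and they behaved differently. Tgfbi (chromosome 13, 56609586 to 56639359), named for its induction by TGF-beta, fell from 3407, 3294 and 3443 normalized read counts in WT to 672 and 654 in the libraries labelled KO. The groups were far apart (log2 fold change -2.35, standard error 0.050, limma adjusted p = 6.5e-20), with WT 5.10-fold higher. Postn (chromosome 3, 54359267 to 54391041), for periostin, was at 4410, 4786 and 5147 in WT and at 4891 and 4566 in the libraries labelled KO. Here the libraries labelled KO lay inside the WT range, and WT spread more than for any other tested member (coefficient of variation 7.72%). The log2 fold change of Postn was -0.014 (limma, adjusted p = 0.83), and its 95% confidence interval ran from -0.12 to 0.094, or 0.919-fold to 1.07-fold. The ratio of Postn to Tgfbi in RPKM was 1.05, 1.18 and 1.21 in WT libraries and 5.92 and 5.68 in the libraries labelled KO.

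Fn1 (chromosome 1, 71585473 to 71653280) had the highest level of the members in every library. It stood at 178665, 183447 and 178330 normalized read counts in WT and at 167769 and 183271 in the libraries labelled KO. KO replicate 1 was below every WT library and KO replicate 2 was close to the highest, so the groups overlapped. The log2 fold change was -0.039 (limma, adjusted p = 0.49), with a 95% confidence interval from -0.14 to 0.060, or 0.909-fold to 1.04-fold. Without KO replicate 2 it was -0.10 and passed the test (limma, adjusted p = 0.013), so whether Fn1 passes turns on 1 library. Counts per gene do not separate the splice forms of fibronectin.

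**Figure D3:**
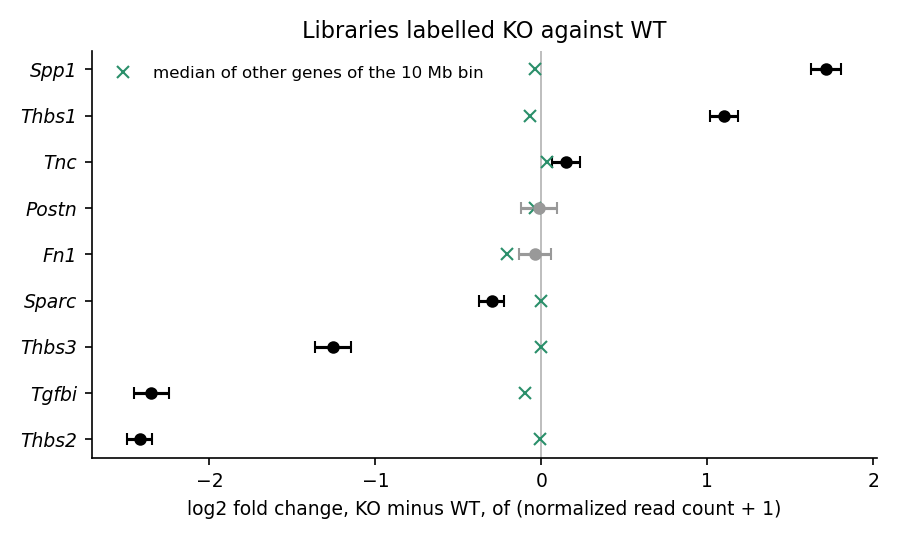
Log2 fold change (libraries labelled KO minus WT) of 9 members on the log2(normalized read count + 1) scale, with 95% confidence intervals from limma. Black points passed the test and grey ones did not, and green crosses mark the median of the other tested genes in the same 10 Mb bin. The members range from -2.42 for Thbs2 to 1.72 for Spp1, while the crosses lie between -0.21 and 0.036.

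The members lie on 8 chromosomes, and the genes around them had medians near 0. The median log2 fold change of the other tested genes in the same 10 Mb bin was -0.066 for Thbs1 (61 genes), -0.0066 for Thbs2 (41 genes), -0.041 for Spp1 (55 genes) and -0.10 for Tgfbi (67 genes). The bin median farthest from 0 was -0.21, for Fn1 (60 genes). With that local shift removed Fn1 was at 0.17 and passed the test (limma, adjusted p = 0.0041), while the other 8 tested members kept their calls. Within 200 kb of Thbs1 the one tested gene was Gpr176, for an orphan receptor, which rose as well (log2 fold change 2.39, limma adjusted p = 2.9e-17). Smad5, the 1 tested gene near Tgfbi, fell, with a log2 fold change of -0.43. Near Spp1 the 2 tested genes fell, with log2 fold changes of -0.57 for Pkd2 and -0.17 for D930016D06Rik. Called genes numbered 14 of 25 tested near Thbs3, 3 of 5 near Sparc, 1 of 1 near Fn1 and 0 of 2 near Thbs4. Among all genes 65.3% were called.

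Ordered by RPKM, the WT libraries gave Fn1 (586.7 ± 8.60, SD, n = 3), Sparc (471.5 ± 3.57), Thbs1 (173.2 ± 3.32), Tnc (156.2 ± 1.25), Thbs2 (141.3 ± 0.705), Spp1 (71.6 ± 1.03), Postn (39.3 ± 3.03), Tgfbi (34.2 ± 0.826) and Thbs3 (20.6 ± 0.536). No neighbours in this order overlapped between libraries. In the libraries labelled KO the order in RPKM was Fn1 (569.0 ± 30.4, SD, n = 2), Sparc (381.6 ± 0.542), Thbs1 (369.3 ± 12.0), Spp1 (234.6 ± 19.5), Tnc (172.6 ± 7.92), Postn (38.7 ± 2.23), Thbs2 (26.3 ± 0.109), Thbs3 (8.57 ± 0.200) and Tgfbi (6.67 ± 0.188). Sparc and Thbs1 differed there by about the spread of Thbs1. Thbs2 dropped from the fifth to the seventh place and Spp1 climbed from the sixth to the fourth. All 10 members together took 0.932% ± 0.0072 (SD, n = 3) of the reads in WT and 0.969% ± 0.034 (SD, n = 2) in the libraries labelled KO.

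Relatives of the members moved in both directions. The list of 31 took in thrombospondin, tenascin, SPARC, fibulin, CCN, matrilin and emilin genes, bone phosphoproteins such as Ibsp, and others such as Vtn (vitronectin). Of these 21 were tested, and 8 were called higher and 10 lower, against 32.6% of all genes in each direction. Their log2 fold change had a median of 0.15, beside -0.0023 over all genes, which is also the background for the lists that follow. Without KO replicate 2, 5 of these relatives were called higher, and likewise with a filter on the mean. Fbln2, a fibulin of elastic fibres, rose from 2923 ± 57.9 normalized read counts in WT (SD, n = 3) to 16985 ± 451 in the libraries labelled KO (SD, n = 2; log2 fold change 2.54). Smoc2, a SPARC relative, rose from 93.0 ± 21.5 to 480.7 ± 25.6. Matn4, a matrilin, was called higher as well but stood at 0 to 3.54 in WT and 11.1 to 16.5 in the libraries labelled KO, a few reads. Among the falls, Tnn, for a tenascin of bone and tendon, went from 1099 ± 176 to 78.6 ± 16.2, a log2 fold change of -3.79. Nov, a CCN family member, went from 2514 ± 54.5 to 256.2 ± 19.8, and Emilin1, for an elastic fibre glycoprotein, from 6304 ± 336 to 2199 ± 33.4. Tnc and Tnn, both tenascins, thus moved in opposite directions, Tnc by little. Their log2 fold changes were 0.15 and -3.79, with limma adjusted p = 0.0026 and 1.2e-16. Of the other CCN genes, named here after their values were seen, Ctgf, Cyr61 and Wisp1 rose, with log2 fold changes of 1.76, 1.61 and 0.98, and Wisp2 fell, with -0.50.

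Of 23 listed receptors of these proteins, 20 were tested, with 6 called higher and 11 lower, against 32.6% of all genes in each direction, and a median of -0.19 on the log2 scale. Itgb1, the beta subunit of most fibronectin and collagen receptors, rose from 26414 ± 476 normalized read counts in WT (SD, n = 3) to 64190 ± 1549 in the libraries labelled KO (SD, n = 2; log2 fold change 1.28). The other tested genes of its 10 Mb bin had a median of 1.01, and with that shift removed Itgb1 was at 0.27. Itga3, a subunit that pairs with it and binds laminin and Thbs1, rose by 1.44, with a bin median of -0.048. Itga9, whose integrin binds Spp1 and Tnc, was called higher but was low, at 2.78 to 11.5 in WT and 39.6 to 65.6 in the libraries labelled KO. Itga2, for a collagen receptor, fell from 121.8 ± 3.97 to 10.5 ± 3.98. Itgb3, a subunit of receptors for Spp1 and Fn1, fell by 0.81 on the log2 scale, with a bin median of -0.41. Itga4 (log2 fold change -0.79, limma adjusted p = 0.035) kept no call without WT replicate 1, WT replicate 2, KO replicate 1 or KO replicate 2. For the WT replicates the limma adjusted p was 0.058 and 0.11. Its call was also lost with RPKM (limma, adjusted p = 0.17), edgeR (adjusted p = 0.12), DESeq2 (adjusted p = 0.30) and in the authors' DESeq2 results (adjusted p = 0.16). Of the receptors best known for thrombospondins, named after their values were seen, Cd36 had 0 reads in all libraries, and Cd47 and Lrp1 fell, with log2 fold changes of -0.44 and -0.79. Itga5, the alpha subunit of the main fibronectin receptor, did not pass, at -0.023.

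The next list held genes for latent TGF-beta, its binding proteins and receptors. Of 13 listed and 12 tested, 1 was called higher and 10 lower, against 32.6% of all genes in each direction, and the median was -0.44 on the log2 scale. Tgfb2 rose from 150.7 ± 20.3 normalized read counts in WT (SD, n = 3) to 330.5 ± 59.4 (SD, n = 2). Lrrc32, for the GARP protein that holds latent TGF-beta at the cell surface, fell from 275.7 ± 33.6 to 84.1 ± 6.84. Ltbp2, for a latent TGF-beta binding protein of elastic fibres, and Tgfb1 itself fell, with log2 fold changes of -1.21 and -0.94.

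The list of fibrillar partners of the members took in collagens and fibrillins, and also Eln, Lox, Bgn and Dcn. Of 16 listed and 15 tested, 6 were called higher and 7 lower, against 32.6% of all genes in each direction. The median was -0.0050 on the log2 scale. Fbn2 (fibrillin-2), Col5a3 and Bgn (biglycan) rose, with log2 fold changes of 2.20, 1.59 and 1.42. Dcn (decorin), Col3a1 and Col12a1 fell, with log2 fold changes of -2.35, -2.25 and -1.46. Proteases that act on the members or their matrix gave 4 called higher and 9 lower of 15 tested, against the same 32.6%, with a median of -0.36. The list of 18 also holds Mfi2, which encodes no protease and had no reads. Adamts5 and Adamts1, which cut proteoglycans, rose by 1.56 and 0.45, and Plat, for tissue plasminogen activator, rose by 1.01, with a bin median of 0.46. Ctsk, for cathepsin K, fell from 618.2 ± 39.5 (SD, n = 3) to 88.5 ± 0.955 (SD, n = 2), and Mmp3 and Mmp2 fell, with log2 fold changes of -2.03 and -1.07. Matn4 (limma, adjusted p = 0.0036) had the highest adjusted p among the genes that the rule named from the 5 lists, apart from Itga4.

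**Figure D4:**
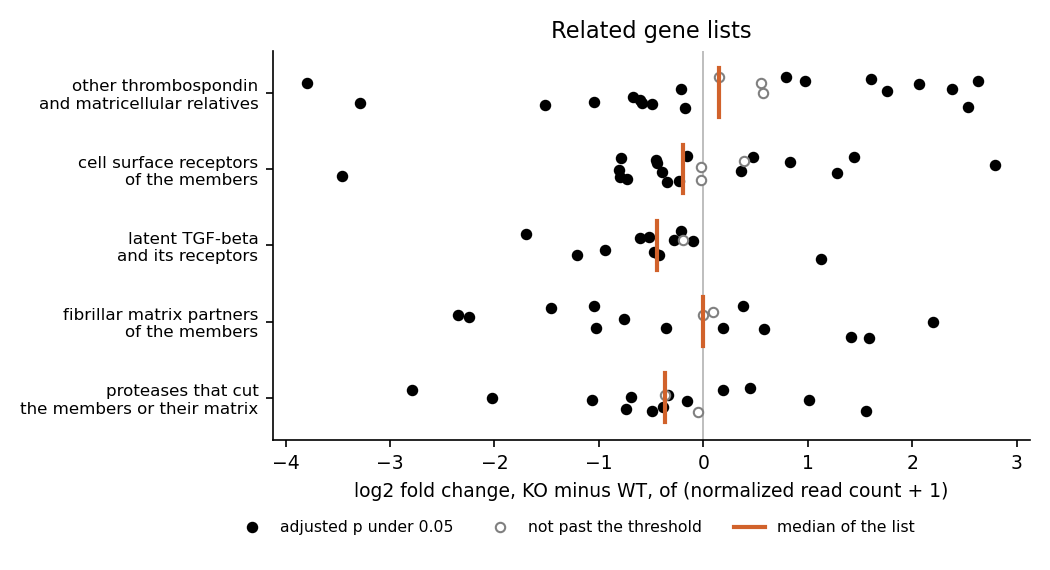
Log2 fold change (libraries labelled KO minus WT) of every tested gene of 5 related lists on the log2(normalized read count + 1) scale. Filled points passed the test, open ones did not, and orange bars are list medians. The medians lie between -0.44 for latent TGF-beta and its receptors and 0.15 for the matricellular relatives, and every list holds genes on both sides of 0.

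The genes whose profile over the 5 libraries was most like that of Spp1, by Euclidean distance between centred log2(normalized read count + 1) values, were Ctgf (distance 0.069), Kcnf1 (0.089) and Arsj (0.11). Ctgf stood at 11170, 10983 and 11305 normalized read counts in WT and 38754 and 36717 in the libraries labelled KO. For Thbs2 they were Ogn (0.056), Pcdhga4 (0.063) and Igfbp6 (0.096). Ogn, for the small proteoglycan osteoglycin, stood at 3258, 3405 and 3258 in WT and 628 and 608 in the libraries labelled KO. The distance is over 5 libraries and follows mainly the difference between the groups.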

How the data were processed

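RNA of 5 libraries was selected on poly-T beads and prepared with Nextera XT for an Illumina NextSeq, per the labels. STAR, DESeq2 and mm10 are listed, with no role or version, in the submitters' processing notes. No source used here gives the counter, annotation, strand setting or filters.

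The authors deposited normalized read counts, treated here as signal: 100% of the values were whole multiples of 1 step per library (within 0.1 reads), that is, reads over a size factor. They also deposited RPKM, log2 fold changes, a test statistic (score) and p-values, per the file headers. Of the symbols, 25 had been turned into dates.

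The fit was limma 3.58.1 (R 4.3.3, trended prior) on log2(normalized read count + 1), with genotype as the factor and two-sided Benjamini-Hochberg adjustment. It took in 13062 genes that reached 10 in 2 or more libraries. Fold changes on this scale understate those of low genes. The code was tested on simulated data. Alternatives changed the scaling (TMM), filter, pseudocount, unit (RPKM), replicate block, local shift and libraries. They also took in the authors' deposited results, and edgeR 4.0.16 and DESeq2 1.42.0 on whole reads of 4 libraries. WT replicate 2 stayed out of those because its step, 0.989, is too near 1. edgeR called 4112 genes higher and 3957 lower, beside 4259 and 4264 with limma. The local shift is the median log2 fold change of the other tested genes in the same 10 Mb bin.

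Positions and promoters came from RefSeq (GRCm38.p6, the assembly of mm10) and overlaps from GENCODE M21. Of 158 genes on the lists, 2 were matched by an older symbol. By rule, the genes named were the 10 members, Sirt3, and up to 3 called rises and 3 called falls per related list. The rule also took in the 3 profiles nearest to the members with the largest rise and fall. Other genes were named outside this rule. They were neighbours and overlapping genes of the members, examples from the lists, markers, and further CCN genes and receptors. Among these, the other CCN genes, Cd36, Cd47 and Lrp1 were named after their values were seen. The members and lists were chosen with earlier results of these data known.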

Additional observations from a re-analysis of the deposited data

How the results depend on the processing

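Over 16 alternative settings, of which 5 leave out 1 library, the calls and directions of Thbs1, Thbs2, Thbs3, Sparc, Spp1, Tnc and Tgfbi were as reported in every one. Their log2 fold changes ranged from 1.06 to 1.16 for Thbs1, -2.43 to -2.41 for Thbs2, -1.29 to -1.22 for Thbs3, -0.31 to -0.29 for Sparc, 1.64 to 1.79 for Spp1, 0.093 to 0.21 for Tnc and -2.37 to -2.25 for Tgfbi. The sign of the members that did not pass was less stable. Postn was at 0.041 with the replicate block and 0.024 with the local shift removed, and between -0.071 and 0.041 when libraries were left out, and never passed. Fn1 was at 0.17 with the local shift removed and between -0.10 and 0.025 when libraries were left out. Members called higher numbered 3 in every setting but the local shift, where Fn1 made 4, and those called lower 4 except without KO replicate 2, where Fn1 made 5. Over all genes, calls higher and lower ranged from 3533 to 4294 and from 3438 to 4293. Sirt3 did not pass once the local shift was taken away, at 0.22 (limma, adjusted p = 0.23).

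Over 10504 genes, the deviations of same-numbered libraries from their group means had r = -0.0093 for number 1 and 0.027 for number 2. These r are across genes, which are not independent replicates. With 2 libraries labelled KO, the deviations of these mirror each other, so both values rest on 1 difference. Whether same-numbered libraries share more than a number is therefore not settled. The replicate block, in which WT replicate 3 has no partner, called 3958 genes higher and 3947 lower. Fits without a KO replicate assume that the lone library labelled KO varies like the others. With 3 and 2 libraries, small differences such as that of Tnc rest on few values, and Thbs4 was below what the depth can show.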

Other observations

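The 2 libraries labelled KO differed from each other in several members by more than in the median gene of high level. Among 6515 genes with a mean of 1000 or more normalized read counts, the median coefficient of variation was 3.10% in the libraries labelled KO and 2.58% in WT. In the libraries labelled KO it was 7.39% for Spp1, 6.24% for Fn1, 5.50% for Tnc, 4.86% for Postn, 4.15% for Thbs1 and 3.24% for Thbs3. With 2 libraries, each of these values rests on 1 difference. Fn1, Tnc, Thbs1 and Thbs3 were higher in KO replicate 2, and Spp1 and Postn were higher in KO replicate 1. Thbs2, at 0.499%, Sparc, at 1.05%, and Tgfbi, at 1.91%, varied less. In WT, Postn alone among the tested members exceeded 3%, at 7.72%.

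The place of a member among all genes differed between the groups as labelled. By mean RPKM over all 23337 genes, Thbs1 went from rank 264 in WT to 84 in the libraries labelled KO and Spp1 from 965 to 181, while Thbs2 went from 368 to 3273 and Tgfbi from 2484 to 7508. Fn1 ranked 37 and 46, and Sparc 48 and 78.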
